A study of Mus musculus with 4 samples.

Results

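The complement genes C1qa, C1qb, C1qc, Cd55, Cr2, Cr1l, Cd59a, Cfp and C3, 9 of the 31053 genes in the count tables, were followed by symbol through liver mononuclear cells of the mouse. Single cells were profiled with the 10x Genomics 5′ assay, in which each unique molecular identifier (UMI) stands for 1 captured transcript. There was 1 library for each of 4 groups, all from C57BL/6 mice of 8 to 10 weeks. The Naïve mice were unexposed. ConA+Veh mice received Concanavalin A, a plant lectin that sets off T cell dependent hepatitis, followed by vehicle. ConA+TCDD mice received Concanavalin A followed by TCDD, and ConA+FICZ mice Concanavalin A followed by FICZ, both ligands of the aryl hydrocarbon receptor (AhR). In the exposed groups the cells were taken 24 hours after Concanavalin A. How many mice went into a library was not given in the sources used here, and neither were the dose and the timing of FICZ. With 1 library per group no difference has a replicate check, so no p-value is given, and every interval covers counting error only at the 95% level.

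Complement is a cascade of plasma and membrane proteins that tags targets and lyses them. C1q, assembled from the A, B and C chains that C1qa, C1qb and C1qc encode, starts the classical pathway when it meets bound antibody and is made mostly by macrophages, whereas most other plasma components, C3 among them, are made by hepatocytes. Properdin (Cfp) stabilises the convertase of the alternative pathway, CD55 and the mouse protein of Cr1l (Crry) limit convertases on the cell surface, CD59 blocks the terminal pore, and CR2 is the receptor of B cells for fragments of C3.

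The 4 libraries held 1880 to 2779 cells, 5952445 to 19252211 UMIs in all and a median of 2161 to 3984 UMIs per cell, lowest in the Naïve library. Any pair of libraries shared 4 to 15 cell barcodes. Each cell was assigned to the class with the most detected genes among lists of 8 markers that contained none of the 9 genes. The list of conventional dendritic cells contained Itgax, which is among the other complement genes counted further on. The B gate held 1086 cells in Naïve, 828 in ConA+Veh, 368 in ConA+TCDD and 783 in ConA+FICZ, and in the same order the T gate held 487, 750, 591 and 534, and the NK gate 120, 267, 180 and 182. The macrophage gate held 58, 182, 28 and 184 cells, the neutrophil gate 23, 102, 41 and 261, and the endothelial gate 42, 62, 7 and 39. A gate of this kind is a range of a marker count and not a sorted population. In the macrophage gate 12, 45, 8 and 27 cells sat at the minimum of 3 markers, and 3, 32, 6 and 32 cells also held 3 markers of a second list. The cells of the macrophage gate carried far more monocyte than Kupffer cell transcripts, but the latter were not absent. Summed over 8 genes, the Kupffer cell list had 49, 87, 4 and 47 UMIs there, in the same order of libraries. The monocyte list, also of 8 genes, had 2402, 11789, 1878 and 10423. Hpgd (29 UMIs) and Folr2 (20 UMIs) were the Kupffer cell genes found in the Naïve library, and Slc40a1 (29 UMIs) was the highest with vehicle. Clec4f, a Kupffer cell lectin, had 0, 10, 0 and 0 UMIs in this gate in that order of libraries, against 435, 2279, 261 and 2123 for the monocyte antigen Ly6c2, and monocyte markers outnumbered Kupffer cell markers in 53, 177, 26 and 176 of its cells. The 8 macrophage markers summed to 13188, 4562, 2645 and 4819 UMIs per 1000000 UMIs of the gate (CPM) in this gate.

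The 3 C1q genes are neighbours on the minus strand of chromosome 4 in GRCm38, within 18675 bases, in the order C1qb (136880129-136886187), C1qc (136889804-136893065) and C1qa (136895917-136898803). Cr1l (195097382-195131586) and Cr2 (195136811-195176716) are neighbours on chromosome 1, which also carries Cd55 (130439027-130462744). The other genes lie on chromosome 2 (Cd59a, 104095801-104115354), chromosome 17 (C3, 57203970-57228136) and chromosome X (Cfp, 20925454-20931555), and all 9 are annotated as protein coding. RefSeq promoter windows, 250 bases before to 50 after the annotated start, were at hand for 8 of the 9 genes. Those of C1qb and C1qc are shown as the neighbours whose transcripts moved together, and that of Cd55 as the member whose level in B cells fell 6.32-fold from Naïve to ConA+Veh. Capitals mark the letters TGCTGA in C1qb and Cd55, a half-site for Maf factors, and GAGGAAG in C1qc, a site for PU.1, on either strand.
C1qb, chr4:136886151-136886450, minus strand: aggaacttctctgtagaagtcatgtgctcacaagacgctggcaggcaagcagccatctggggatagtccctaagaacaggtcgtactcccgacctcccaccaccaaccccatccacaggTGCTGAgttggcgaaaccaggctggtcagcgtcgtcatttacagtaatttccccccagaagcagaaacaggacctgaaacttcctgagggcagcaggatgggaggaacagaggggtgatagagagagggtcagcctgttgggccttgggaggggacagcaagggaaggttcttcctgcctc
C1qc, chr4:136892865-136893164, minus strand: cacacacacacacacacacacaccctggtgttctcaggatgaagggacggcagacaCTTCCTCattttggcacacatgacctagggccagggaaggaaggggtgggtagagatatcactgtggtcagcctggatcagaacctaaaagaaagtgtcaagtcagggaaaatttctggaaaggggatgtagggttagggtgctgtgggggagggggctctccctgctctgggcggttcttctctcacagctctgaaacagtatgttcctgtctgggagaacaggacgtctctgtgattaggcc
Cd55, chr1:130462695-130462994, minus strand: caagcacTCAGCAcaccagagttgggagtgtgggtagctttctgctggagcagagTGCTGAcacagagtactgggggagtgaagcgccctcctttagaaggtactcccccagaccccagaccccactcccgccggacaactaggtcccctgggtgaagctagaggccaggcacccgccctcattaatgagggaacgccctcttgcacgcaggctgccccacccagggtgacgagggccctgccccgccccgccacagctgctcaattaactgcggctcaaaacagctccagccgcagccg
The Maf half-site lay 131 bases before the RefSeq start of C1qb and 243 and 195 bases before that of Cd55, and 19.5% of all 32841 windows contain it. The PU.1 site lay 194 bases before the RefSeq start of C1qc and occurs in 13.6% of windows. That RefSeq start lies inside the C1qc span given above, so the site is nearer to the upstream end of that span. A longer form of the AhR response element, TNGCGTG, occurs in 5.07% of windows and in 0 of the 8 windows here. That says only that these letters are not in these stretches. The shorter core GCGTG was not counted, and on either strand it is present in the windows of Cd55, Cd59a and Cfp.

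C1q transcripts were concentrated in the macrophage gate of every library. The 3 chains together reached 2964 CPM (2779 to 3158, 957 UMIs) in Naïve, 5529 CPM (5416 to 5644, 9149 UMIs) in ConA+Veh, 1927 CPM (1780 to 2082, 638 UMIs) in ConA+TCDD and 6631 CPM (6503 to 6762, 10088 UMIs) in ConA+FICZ. In these pooled UMIs the level was lowest in ConA+TCDD and highest in ConA+FICZ, and the 4 intervals did not overlap, but the place of ConA+TCDD below Naïve did not hold under other weightings of the cells. In each library the next gate in order was far below, at 61.6, 57.7, 4.55 and 15.4 CPM (neutrophil, neutrophil, NK and T), and the gates after it mostly overlapped in their intervals. The macrophage gate held 97.7%, 90.1%, 59.8% and 93.7% of the C1q UMIs of the library, and in ConA+TCDD another 37.8% sat in cells that met no gate.

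**Figure D1:**
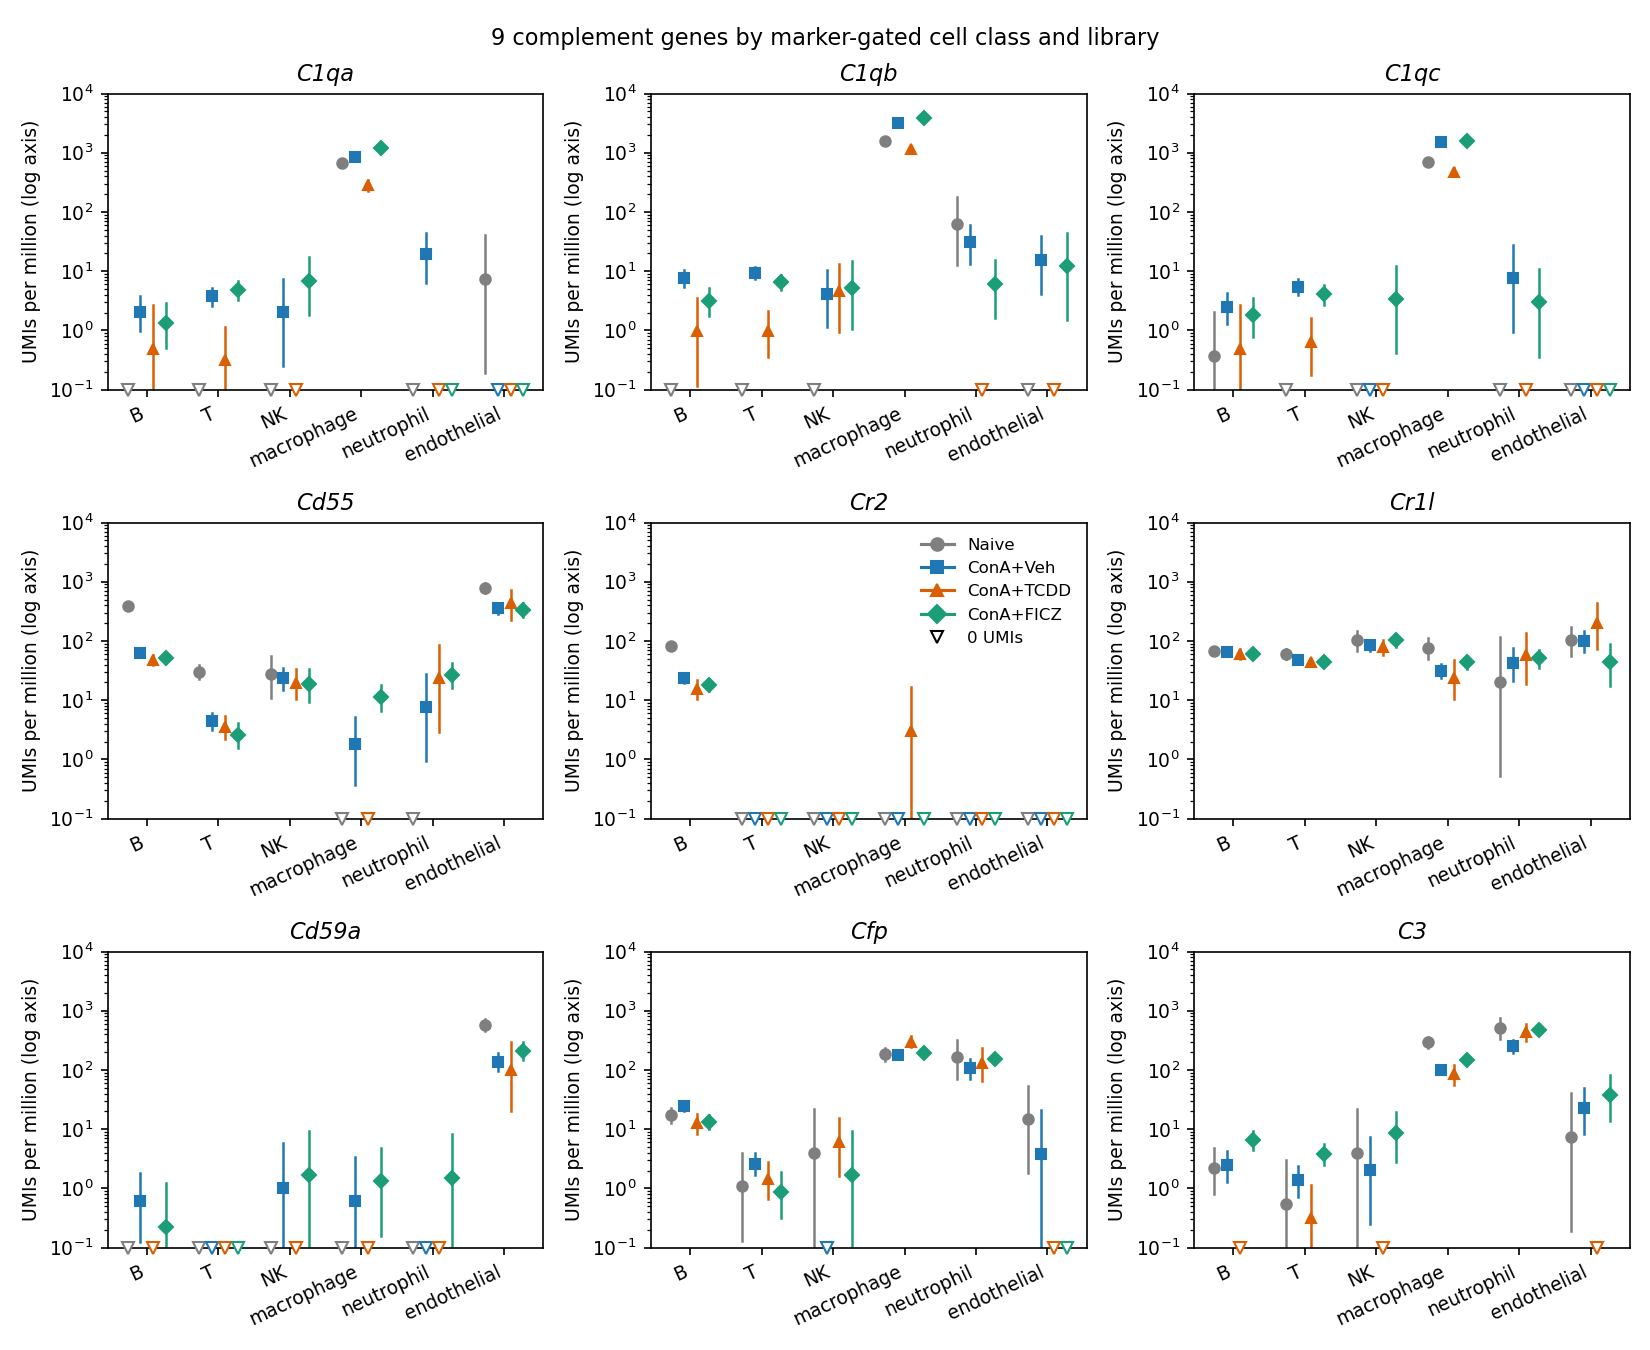
CPM (log axis) of the 9 complement genes in 6 marker-gated cell classes, 1 point per library with its exact 95% Poisson interval; open triangles at the base are gates with 0 UMIs. C1q sits in the macrophage gate, Cr2 in the B gate, Cd59a in the endothelial gate, Cd55 in the B and endothelial gates, and Cr1l in every gate.

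Against Naïve, summed C1q in the macrophage gate was 1.87-fold higher in ConA+Veh (log2 ratio 0.90, 0.80 to 0.997). Against ConA+Veh it was 2.87-fold lower in ConA+TCDD (log2 ratio -1.52, -1.64 to -1.40) and 1.199-fold higher in ConA+FICZ (log2 ratio 0.26, 0.22 to 0.30). All 3 comparisons use the ConA+Veh library. The size of both larger differences depended on how cells were weighted: with each cell weighted equally the log2 ratio was 1.73 for ConA+Veh over Naïve and -0.53 for ConA+TCDD over ConA+Veh, and with a marker lead of at least 3 genes the latter was -0.75. In clusters built without complement genes it was -0.67. With equal weights ConA+TCDD lay above Naïve, at means of 39.1 and 17.0 C1q UMIs per 10000, as it did in the clusters, at 3778 and 2966 CPM.

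The Naïve and exposed libraries differed in how many cells carried C1q. After thinning each cell to 1000 UMIs, a C1q UMI was found in 11 of 57 macrophage-gated cells of Naïve (19.3%, 10.0 to 31.9), 145 of 180 of ConA+Veh (80.6%, 74.0 to 86.1), 18 of 28 of ConA+TCDD (64.3%, 44.1 to 81.4) and 150 of 181 of ConA+FICZ (82.9%, 76.6 to 88.1). The exposed libraries overlapped in their intervals and Naïve lay below all of them. Without thinning the shares were 25.9%, 87.9%, 67.9% and 87.5%, at medians of 3582.5, 6757.5, 8877.5 and 5918 UMIs per cell. In T-gated cells, which should lack C1q, the thinned share was 0%, 0.538%, 0.515% and 0.758%, at medians of 2784, 8562.5, 7113 and 9327.5 UMIs.

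Among single macrophage-gated cells the median was 0 C1q UMIs per 10000 in Naïve, 46.9 in ConA+Veh, 15.8 in ConA+TCDD and 62.3 in ConA+FICZ. The highest single cells reached 198, 207, 249 and 210.3 per 10000, so the maximum was similar in the 4 libraries while the middle was not. These maxima are taken over 58, 182, 28 and 184 cells. In ConA+TCDD the highest cell was shallow, with 27 C1q UMIs among 1083. The next had 23 among 1130 (203.5 per 10000), and the one after it lay at 95.8 per 10000. One cell gave 22.9% of all C1q UMIs of the gate in Naïve and 25.5% in ConA+TCDD, against 2.70% in ConA+Veh and 4.36% in ConA+FICZ. Without the top cell of each library, a choice made after seeing the data, the log2 ratio was 1.14 for ConA+Veh over Naïve and -1.85 for ConA+TCDD over ConA+Veh. Restricted to cells in which monocyte markers led, the level was 2873, 5460.5, 1788 and 6578 CPM, the same order of pooled CPM as in the whole gate. The few cells in which Kupffer cell markers led stood at 14137 CPM in ConA+Veh (5 cells) and 20354 CPM in ConA+TCDD (1 cell).

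**Figure D2:**
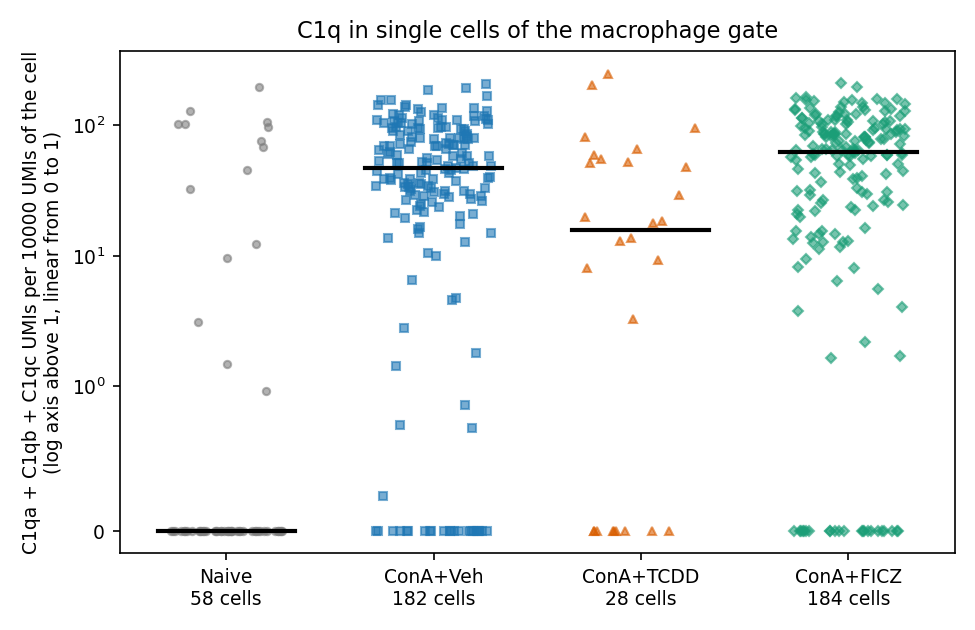
C1q UMIs per 10000 UMIs in each macrophage-gated cell (vertical axis logarithmic above 1 and linear below), 1 point per cell and a bar at the median of each library. The medians are 0, 46.9, 15.8 and 62.3, while the highest cell of every library lies between 198 and 249.

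Each of the 3 chains followed the sum. C1qa, which encodes the A chain, stood at 669 CPM in the macrophage gate of Naïve, 861 CPM in ConA+Veh, 281 CPM in ConA+TCDD and 1212 CPM in ConA+FICZ. C1qb stood at 1601, 3168, 1166 and 3819.9 CPM. C1qc stood at 694, 1500.0, 480.2 and 1600.0 CPM. For all 3 genes ConA+TCDD was the lowest library and ConA+FICZ the highest in pooled CPM, the measure in which the sum was also lowest there, with log2 ratios of ConA+TCDD over ConA+Veh of -1.62 (-1.94 to -1.31), -1.44 (-1.60 to -1.29) and -1.64 (-1.88 to -1.41). The rise from Naïve to ConA+Veh was smaller for C1qa (0.36, 0.16 to 0.58) than for C1qb (0.98, 0.85 to 1.12) and C1qc (1.11, 0.91 to 1.32), and its interval lay below both of theirs.

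The balance of the chains among the C1q UMIs shifted accordingly. C1qa made up 22.6% (19.96 to 25.4) of them in Naïve, 15.6% (14.8 to 16.3) in ConA+Veh, 14.6% (11.9 to 17.6) in ConA+TCDD and 18.3% (17.5 to 19.0) in ConA+FICZ. C1qb made up 54.0%, 57.3%, 60.5% and 57.6%, and C1qc 23.4%, 27.1%, 24.9% and 24.1%. The share of C1qa was thus higher in Naïve than in the other libraries, and higher in ConA+FICZ than in ConA+Veh, while one Naïve cell carried 34.3% of its C1qa UMIs. All 3 chains were found together at 1000 UMIs in 6 of 57, 66 of 180, 6 of 28 and 68 of 181 cells.

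**Figure D3:**
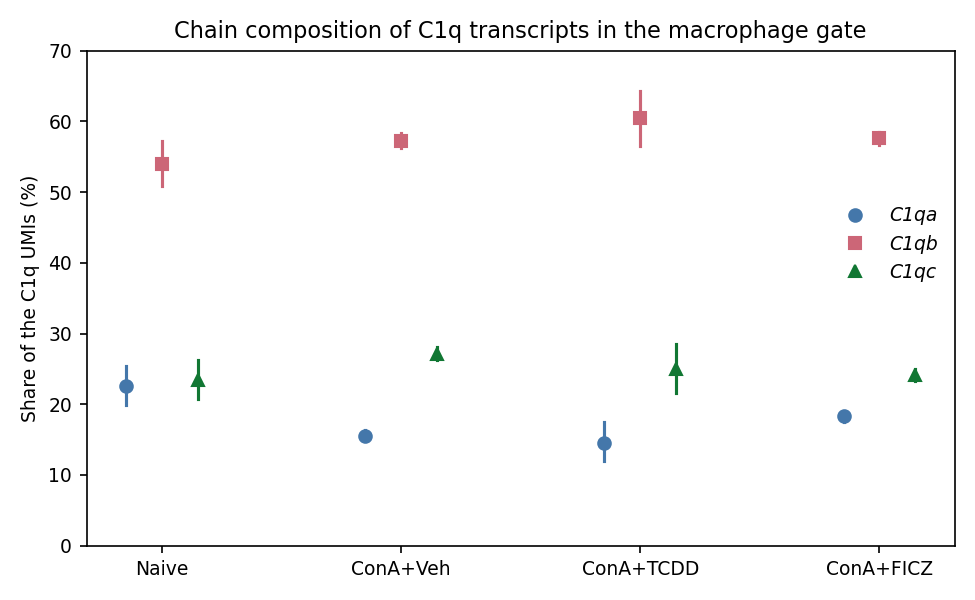
Share of the C1q UMIs of the macrophage gate that came from C1qa, C1qb and C1qc (vertical axis, percent) in the 4 libraries, with exact binomial 95% intervals. C1qa takes 22.6% in Naïve and 14.6% to 18.3% after Concanavalin A.

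In some classes outside the macrophage gate most C1q UMIs lay in a few cells. The T gate held 0, 163, 12 and 106 C1q UMIs. In ConA+Veh 2 T-gated cells with at least 10 C1q UMIs held 122 of the 163, and in ConA+FICZ 1 cell held 92 of the 106. The gate of granulocyte progenitors (Mpo, Elane, Prtn3 and related genes) held 153 C1q UMIs in ConA+Veh, 149 of them in 3 cells, and 132 in ConA+FICZ, 116 of them in 1 cell. Elsewhere they were spread, as in the B gate of ConA+FICZ with 28 UMIs over 21 cells and the T gate of ConA+TCDD with 12 UMIs over 11 cells. In the progenitor gate C1qa made up 4.58% (1.86 to 9.20) and 6.06% (2.65 to 11.6) of the C1q UMIs, below the 15.6% and 18.3% of the macrophage gate. Whether these are mixed droplets was not tested, and no doublet caller was run.

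Among the members with at least 30 UMIs in a pair of libraries, differences of at least 2-fold were set beside the share of all genes past that limit. In the macrophage gate C1qa, C1qb and C1qc were 3 of 6 such members at least 2-fold lower in ConA+TCDD than in ConA+Veh, where 6.7% of all genes were, and 0 of 6 were at least 2-fold higher, where 3.13% were. As neighbours read from the same cells these 3 are not independent. The count also holds for pooled UMIs of the main gate. With equal weights per cell, a lead of 3 markers or clusters, summed C1q was less than 2-fold lower, as given above. From Naïve to ConA+Veh 1 of 6 was higher (C1qc, with 6.08% of all genes) and 2 of 6 lower (C3 and Cr1l, with 9.16%). In ConA+FICZ against ConA+Veh 0 of 6 passed in either direction, where 3.04% of all genes were higher and 1.15% lower.

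The membrane regulator Cd55, which speeds the decay of convertases, was expressed in endothelial cells and B cells and was lower in both after Concanavalin A. In the B gate it stood at 393 CPM (369.9 to 417, 1076 UMIs) in Naïve, 62.2 CPM (55.4 to 69.6, 304 UMIs) in ConA+Veh, 48.6 CPM (39.6 to 59.1, 101 UMIs) in ConA+TCDD and 51.4 CPM (44.9 to 58.5, 228 UMIs) in ConA+FICZ. Naïve stood apart and the exposed libraries overlapped in their intervals. The fall from Naïve to ConA+Veh was 6.32-fold (log2 ratio -2.66, -2.85 to -2.47). The log2 ratios of ConA+TCDD and ConA+FICZ over ConA+Veh were small, -0.36 (-0.69 to -0.03) and -0.27 (-0.53 to -0.02). At 1000 UMIs per cell a Cd55 UMI was found in 33.7% of B-gated cells of Naïve and in 7.40%, 8.43% and 9.20% of those of the exposed libraries, so the small differences among the latter did not appear in the shares. Without thinning the shares were 56.3%, 28.1%, 22.8% and 23.2%. Part of the sequence is shared with the neighbouring gene Cd55b, so reads of Cd55 could be lost or misassigned, which was not tested.

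The fall of Cd55 in B cells was present at each number of detected activation genes. That number depends on depth, so these groups of cells are not matched for activation between libraries. The median was 2360 UMIs per cell in Naïve and 5766 in ConA+Veh with at least 2 such genes. With none it was 1775 and 2115.5. Among B-gated cells with at least 2 detected activation genes (of Cd69, Cd83, Cd86, Mreg and Cd200) the level was 362 CPM in Naïve and 56.6, 36.7 and 44.3 CPM after Concanavalin A with vehicle, TCDD and FICZ. Among those with no detected activation gene it was 436 CPM in Naïve and 55.6, 87.7 and 69.5 CPM in the exposed libraries. Of the 8 genes listed for the state of B cells, all but Mreg were also lower in ConA+Veh than in Naïve. Among genes of mature resting B cells Fcer2a, encoding CD23, stood at 468, 37.8, 24.1 and 29.98 CPM and Ighd, the heavy chain of IgD, at 766, 316, 284 and 426 CPM. The activation genes Cd83, at 809.7 against 258 CPM, and Cd69, at 440.1 against 249 CPM, were lower as well, whereas Mreg stood at 5.48 and 8.18 CPM. Whether the B cells of the libraries are the same population was not tested.

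In the endothelial gate Cd55 stood at 793 CPM (107 UMIs) in Naïve, 353 CPM (92 UMIs) in ConA+Veh, 432 CPM (13 UMIs) in ConA+TCDD and 336 CPM (54 UMIs) in ConA+FICZ. It was the highest gate for Cd55 in every library, above B cells with no overlap of the intervals. The fall from Naïve to ConA+Veh was 2.24-fold (log2 ratio -1.17, -1.58 to -0.75). The ConA+TCDD value rests on 7 cells, 1 of which gave 69.2% of the UMIs, and its log2 ratio over ConA+Veh was 0.29 (-0.67 to 1.13), or -1.02 without the top cells. In the T gate Cd55 fell 6.69-fold from 29.8 CPM in Naïve to 4.45 CPM in ConA+Veh (log2 ratio -2.74, -3.37 to -2.12), followed by 3.54 CPM in ConA+TCDD and 2.62 CPM in ConA+FICZ. In the NK gate it stood at 27.4, 23.7, 19.7 and 18.7 CPM, with no difference beyond counting error (ConA+Veh over Naïve -0.21, -1.48 to 1.25, on 7 and 23 UMIs). Macrophage-gated cells had 0, 3, 0 and 17 UMIs, and the 17 came from 1 cell.

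Cr2, the complement receptor of B cells, was found almost only in the B gate, which held 98.3%, 100%, 84.2% and 97.6% of its UMIs. Its level there was 82.9 CPM (72.5 to 94.4, 227 UMIs) in Naïve, 23.3 CPM (19.2 to 28.0, 114 UMIs) in ConA+Veh, 15.4 CPM (10.5 to 21.7, 32 UMIs) in ConA+TCDD and 18.3 CPM (14.5 to 22.7, 81 UMIs) in ConA+FICZ. As for Cd55, Naïve stood above the exposed libraries. The fall from Naïve to ConA+Veh was 3.56-fold (log2 ratio -1.83, -2.17 to -1.50), and the ratio was -1.09 with each cell weighted equally. Compared with ConA+Veh the log2 ratio was -0.60 (-1.21 to -0.02) for ConA+TCDD and -0.35 (-0.78 to 0.07) for ConA+FICZ, the latter -1.04 with equal weights. The share of B-gated cells with a Cr2 UMI at 1000 UMIs was 8.68%, 3.51%, 2.62% and 2.80%, and 17.8%, 11.1%, 7.88% and 8.56% without thinning. T-gated cells had 0 UMIs in every library, which allows a level of up to 1.62, 0.342, 0.483 and 0.437 CPM. In Naïve both Cd55 and Cr2 were found in 34 of 1060 B-gated cells at 1000 UMIs, Cd55 alone in 323 and Cr2 alone in 58.

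**Figure D4:**
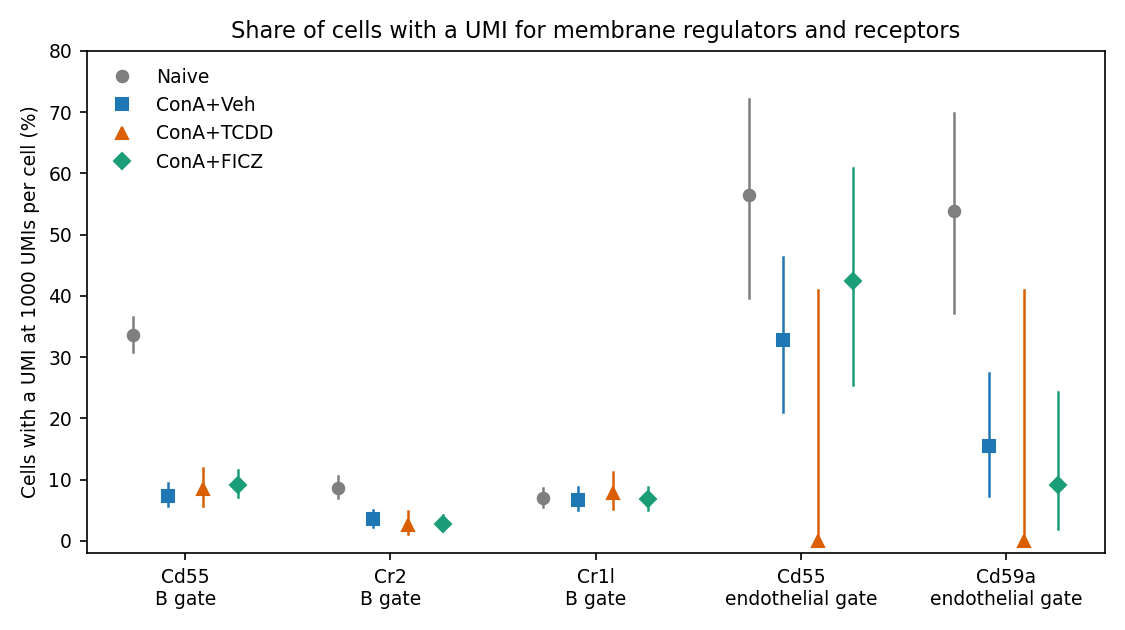
Percentage of cells with at least 1 UMI (vertical axis) of Cd55, Cr2 and Cr1l in the B gate and of Cd55 and Cd59a in the endothelial gate, after thinning each cell to 1000 UMIs, with exact binomial 95% intervals. Cd55 in the B gate falls from 33.7% in Naïve to between 7.40% and 9.20%, while Cr1l stays between 6.75% and 7.85%.

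In the B gate 2 of the 5 members with enough UMIs, Cd55 and Cr2, were at least 2-fold lower in ConA+Veh than in Naïve, as were 17.9% of all genes. C1qb was the 1 member that was higher, at 37 UMIs against 0, where 7.22% of all genes were. From ConA+Veh to ConA+TCDD 0 of 5 were higher (0.885% of all genes) and 1 of 5 was lower (C1qb, with 2.61%), and from ConA+Veh to ConA+FICZ 1 of 6 was higher (C3, with 1.76%) and 1 of 6 lower (C1qb, with 1.64%). The C1qb counts in B-gated cells were 0, 37, 2 and 14 UMIs, and 48.6% of the 37 came from 1 cell.

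In the T gate 3 of 5 members were at least 2-fold higher in ConA+Veh than in Naïve, the C1q chains, all at 0 UMIs in Naïve, where 9.12% of all genes were, and Cd55 was 1 of 5 lower, where 14.4% were. From ConA+Veh to ConA+TCDD the C1q chains were 3 of 6 lower (1.68% of all genes) and 0 of 6 were higher (0.663%). With FICZ in place of vehicle 1 of 6 was higher (C3, with 1.06% of all genes) and 0 of 6 lower (1.8%). These C1q counts in T-gated cells lay mostly in the few cells described for ConA+Veh and ConA+FICZ. In the NK gate the 2 members with enough UMIs, Cd55 and Cr1l, passed in 0 of the 3 comparisons. There 8.6% of all genes were higher and 11.2% lower from Naïve to ConA+Veh, 0.816% and 2.34% from ConA+Veh to ConA+TCDD, and 1.36% and 3.22% from ConA+Veh to ConA+FICZ.

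Cr1l, the regulator Crry of rodents, was the only member detected in all 6 gates of all 4 libraries and differed little between libraries in lymphocytes. In the B gate it stood at 67.6 CPM (185 UMIs), 64.6 CPM (316), 60.6 CPM (126) and 60.9 CPM (270) in the 4 libraries. The log2 ratios of the 3 comparisons were -0.06 (-0.33 to 0.21), -0.09 (-0.40 to 0.21) and -0.09 (-0.33 to 0.15). In the same cells Cd55 fell 6.32-fold, so these membrane regulators did not change together. In the T gate Cr1l stood at 61.2, 48.3, 44.2 and 44.7 CPM, a fall of 0.34 on the log2 scale from Naïve to ConA+Veh (-0.64 to -0.03). In the NK gate it stood at 101.9, 84.5, 78.8 and 102 CPM. In the macrophage gate it fell 2.46-fold from 77.4 CPM (25 UMIs) in Naïve to 31.4 CPM (52 UMIs) in ConA+Veh (log2 ratio -1.30, -2.02 to -0.55), though by 0.46 with each cell weighted equally, followed by 24.2 and 44.0 CPM.

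Cd59a, the inhibitor of the terminal pore, was an endothelial transcript among the 6 gates. In the endothelial gate it stood at 570.4 CPM (450.2 to 713, 77 UMIs) in Naïve, 138 CPM (96.8 to 191, 36 UMIs) in ConA+Veh, 99.6 CPM (20.5 to 291, 3 UMIs) in ConA+TCDD and 211 CPM (146 to 296, 34 UMIs) in ConA+FICZ. Naïve was above all exposed libraries, and the latter overlapped. The fall from Naïve to ConA+Veh was 4.13-fold (log2 ratio -2.04, -2.66 to -1.46), and ConA+FICZ over ConA+Veh gave 0.61 (-0.11 to 1.33). At 1000 UMIs 53.8% of the endothelial cells of Naïve had a Cd59a UMI, 15.5% of those of ConA+Veh, 0 of 7 of those of ConA+TCDD, which allows up to 41.0%, and 9.09% of those of ConA+FICZ. T-gated cells had 0 UMIs in every library. Among the other classes erythroid cells had Cd59a at 96.2 to 166 CPM, on 1 to 12 UMIs per library.

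The endothelial cells of the libraries also differed in markers of the sinusoid. Clec4g, a lectin of sinusoidal endothelium, stood at 2719 CPM in Naïve and 7.68, 0 and 18.7 CPM in the exposed libraries, and the scavenger receptor Stab2 at 1496, 134, 365 and 193 CPM. The pan-endothelial cadherin Cdh5 stood at 822, 837, 963 and 858 CPM, and Egfl7 at 1630, 1421, 929 and 1312 CPM. The rest of the endothelial list was lower in the exposed libraries. Kdr stood at 1452, 419, 398 and 417 CPM and Ptprb at 1682, 369, 398 and 373 CPM. Eng stood at 2060, 826, 697 and 939 CPM and Oit3 at 1200, 84.5, 133 and 74.6 CPM. The part of these differences in the fall of Cd59a and Cd55 was not tested. Fewer sinusoidal cells and less RNA per cell cannot be told apart here. Both Cd55 and Cd59a, 2 of the 3 members with enough UMIs, were at least 2-fold lower in ConA+Veh than in Naïve, where 10.4% of all genes were. Cr1l, the remaining one, was at 103.7 and 99.8 CPM, and then at 199 CPM in ConA+TCDD (6 UMIs) and 43.5 CPM in ConA+FICZ (7 UMIs). In ConA+TCDD against ConA+Veh 0 of 3 passed in either direction (6.08% of all genes higher, 6.8% lower). From ConA+Veh to ConA+FICZ 1 of 3 was lower, Cr1l (log2 ratio -1.20, -2.65 to 0.04), where 2.55% of all genes were, and 0 were higher, where 2.97% were.

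Cfp, encoding properdin, was highest among the 6 gates in macrophage-gated and neutrophil-gated cells. In the macrophage gate it stood at 186 CPM (60 UMIs) in Naïve, 181 CPM (299 UMIs) in ConA+Veh, 302 CPM (100 UMIs) in ConA+TCDD and 194 CPM (295 UMIs) in ConA+FICZ. The log2 ratio of ConA+TCDD over ConA+Veh was 0.74 (0.40 to 1.07), but 1 cell gave 34.0% of the 100 UMIs, and without the top cell of each library the ratio was 0.32. With a lead of at least 3 markers it was 0.0697, and in clusters 0.18. ConA+Veh over Naïve (-0.04, -0.44 to 0.38) and ConA+FICZ over ConA+Veh (0.10, -0.14 to 0.34) did not differ beyond counting error. The share of macrophage-gated cells with a Cfp UMI at 1000 UMIs was 12.3%, 16.1%, 17.9% and 16.0%, against 0.214%, 0.269%, 0% and 0% of T-gated cells.

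In the neutrophil gate Cfp stood at 164, 108, 129 and 152 CPM on 8, 28, 11 and 102 UMIs, with overlapping intervals. In the B gate it stood at 17.2, 24.3, 12.5 and 13.3 CPM, above the 0.873 to 2.63 CPM of T cells, with log2 ratios over ConA+Veh of -0.96 (-1.63 to -0.34) for ConA+TCDD and -0.87 (-1.35 to -0.41) for ConA+FICZ. Plasmacytoid dendritic cells, a small class of 21, 21, 17 and 13 cells, had Cfp at 485 CPM (39 UMIs) in Naïve, 258 CPM (21 UMIs) in ConA+Veh, 63.8 CPM (6 UMIs) in ConA+TCDD and 45.8 CPM (2 UMIs) in ConA+FICZ. Naïve was highest, with a log2 ratio of ConA+Veh over Naïve of -0.91 (-1.75 to -0.11), the libraries with an AhR ligand overlapped in their intervals, and 1 cell gave 41.0% of the UMIs of Naïve. A Cfp UMI was found at 1000 UMIs in 7 of 20, 5 of 21, 0 of 17 and 0 of 13 of these cells. In the whole class 9, 2, 2 and 4 cells also held 3 markers of a second list. The part of such cells in the Cfp values was not tested.

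C3, the component on which all pathways meet, was read in neutrophils and macrophages among the 6 gates, and in both was lower in ConA+Veh than in Naïve. In the neutrophil gate it stood at 514 CPM (332 to 758, 25 UMIs) in Naïve, 254 CPM (196 to 323, 66 UMIs) in ConA+Veh, 435 CPM (306 to 599.8, 37 UMIs) in ConA+TCDD and 464 CPM (414 to 519, 311 UMIs) in ConA+FICZ. ConA+Veh was the lowest library, with log2 ratios of -1.02 (-1.70 to -0.29) over Naïve and of 0.78 (0.15 to 1.38) and 0.87 (0.48 to 1.28) for ConA+TCDD and ConA+FICZ over it. The share of neutrophils with a C3 UMI at 1000 UMIs was 47.4%, 31.5%, 38.7% and 31.6%, with overlapping intervals, so it did not separate the libraries. C3 in neutrophils was the 1 of 2 members at least 2-fold lower in ConA+Veh than in Naïve, where 13.9% of all genes were, and 0 of 2 were higher, where 9.23% were. In the other comparisons 0 of 2 and 0 of 3 members passed, where 3.21% of all genes were higher and 3.77% lower for ConA+TCDD, and 9.64% higher and 2.9% lower for ConA+FICZ.

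In the macrophage gate C3 stood at 294 CPM (95 UMIs), 101 CPM (167 UMIs), 84.6 CPM (28 UMIs) and 149 CPM (226 UMIs). Naïve was highest, 2.92-fold above ConA+Veh (log2 ratio -1.54, -1.92 to -1.16), the opposite direction to C1q in these cells. ConA+FICZ was above ConA+Veh (0.56, 0.26 to 0.86), and ConA+TCDD over ConA+Veh gave -0.26 (-0.89 to 0.33). In T-gated cells C3 was at 0.541, 1.37, 0.322 and 3.78 CPM and in B-gated cells at 2.19, 2.45, 0 and 6.54 CPM, highest in ConA+FICZ, the library with 132 hepatocyte-gated cells against 25, 5 and 0 in the others. The summed hepatocyte markers were highest in Naïve instead, at 109, 49.5, 29.4 and 43.5 CPM in B-gated and 117, 88.2, 74.0 and 89.5 CPM in T-gated cells. Hepatocyte-gated cells had C3 at 131 CPM in Naïve (6 UMIs), 8666 CPM in ConA+Veh (113 UMIs) and 1450.1 CPM in ConA+FICZ (367 UMIs). The part of free hepatocyte RNA in the lymphocyte values was not tested.

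The other 43 complement genes, of which 41 were in the tables by symbol, were mostly too scarce to compare in mononuclear cells. Those with enough UMIs were mainly receptors. In the macrophage gate 0 of 8 were at least 2-fold higher in ConA+Veh than in Naïve, where 6.08% of all genes were, and 1 was lower, where 9.16% were. This was Itgam, the alpha chain of complement receptor 3, from 288 to 136 CPM (log2 ratio -1.08, -1.44 to -0.72). With TCDD in place of vehicle 2 of 8 were at least 2-fold lower, where 6.7% of all genes were, the C3a receptor C3ar1 from 68.3 to 18.1 CPM (-1.91, -3.39 to -0.75) and factor B, Cfb, from 46.5 to 18.1 CPM (-1.36, -2.85 to -0.17), on 6 UMIs each in ConA+TCDD. The median log2 ratio of all 8 genes in this comparison was -0.46, against -0.027 for all genes in the tables with enough UMIs. In ConA+FICZ Itgam was at least 2-fold higher than in ConA+Veh, at 282 CPM (1.05, 0.82 to 1.29), as was C4b, a gene of the classical pathway, where 3.04% of all genes were.

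In the endothelial gate 4 of 6 of these genes were at least 2-fold higher in ConA+Veh than in Naïve, where 11.5% of all genes were. Serping1, the C1 inhibitor, rose from 66.7 to 204 CPM (log2 ratio 1.61, 0.58 to 2.82) and reached 678 CPM in ConA+FICZ. Clu, the fluid-phase inhibitor clusterin, was at 7.41 CPM in Naïve (1 UMI), 249.6 CPM in ConA+Veh (65 UMIs) and 392 CPM in ConA+FICZ (63 UMIs). In the 7 endothelial-gated cells of ConA+TCDD, Serping1 was at 66.4 CPM (2 UMIs) and Clu had 0 UMIs. Cd93 rose from 393 to 864 CPM (1.14, 0.70 to 1.60), and C1qbp, encoding a mitochondrial protein that also binds C1q, from 29.6 to 154 CPM. From Naïve to ConA+Veh the secreted inhibitors Serping1 and Clu thus rose in the gate in which the membrane inhibitors Cd55 and Cd59a fell. C1qbp was also higher in ConA+Veh than in Naïve in B cells (304 against 108 CPM), T cells (430 against 207 CPM) and NK cells (125 against 47.0 CPM).

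Over the 24 combinations of 6 gates and 4 libraries, the genes whose log2(CPM + 10) followed C1q most closely included F13a1, Lpl, Rab7b and Aif1 (Pearson r 0.971 to 0.973). For Cd55 the 5 closest were Rasgrp3, Fam43a, Pecam1, Map4k5 and Gm15675 (r 0.866 to 0.926), and for Cfp Clec12a, Plbd1, Lyz2, Csf2rb and Lrrc25 (r 0.957 to 0.967). Lyz2 is a marker of the macrophage gate and F13a1 one of the monocyte list, the gates of 1 library share their depth, and the values describe 9392 genes with at least 200 UMIs.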

How the data were processed

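The authors sequenced 10x Genomics 5′ libraries and made the tables with bcl2fastq and Cell Ranger (software version 3.0.2 in the matrix header) against mm10. The deposited values are raw UMI counts, not normalized, for each gene in each barcode that Cell Ranger called a cell. The authors' later cell clustering was not used here. The members and gene lists were chosen with earlier results of these data known.

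Each cell was gated to the class with the most detected markers among 13 lists of 8 genes (6 reported classes and 7 competing ones), with at least 3 detected and a lead of at least 1; other cells stayed ungated. The marker Ahsp and the complement genes C4a and C5 had no row by symbol. Within a library the counts of a gate were added up and scaled by the total UMIs of the same gate (CPM). Levels carry exact Poisson, shares exact Clopper-Pearson and ratios exact conditional binomial intervals at 95%; they cover counting error only, and a count of 0 was read as allowing 3 counts. Ratios needed 30 UMIs in both libraries together. Cells were thinned to 1000 UMIs for shares of cells, and shallower cells left out: 1, 2, 0 and 3 in the macrophage gate and 26, 58, 24 and 33 in the B gate. The text names the 9 members, other complement genes with at least 30 UMIs in a library of a gate, markers, and for C1q, Cd55 and Cfp the 5 genes most like them. Some genes that meet this rule are not reported here. C4b, named by count only, and single cells were picked after their values were seen. Alternatives were other marker minimums, a lead of 3, a filter on cells (under 200 genes or over 10% mitochondrial UMIs), other scalings, Leiden clusters without complement genes, other thinning and a minimum of 100 UMIs. The ratio intervals were tested only on simulated, independent Poisson counts of pooled gates. These leave out the spread between cells, so the test does not show how well the intervals cover in these data. The work was done in Python 3.11.15 with scipy 1.17.1, numpy 2.4.6, leidenalg 0.10.2, igraph 0.11.9, scikit-learn 1.9.0, matplotlib 3.10.9 and pandas 2.3.3. Positions are from GENCODE for GRCm38 and promoter windows from RefSeq (GRCm38.p6).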

Additional observations from a re-analysis of the deposited data

Results flagged for a closer look

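C1qb moved in opposite directions in macrophage-gated and B-gated cells between ConA+Veh and ConA+FICZ, with log2 ratios of 0.27 (0.22 to 0.32) and -1.26 (-2.26 to -0.34). The second rests on 37 and 14 UMIs. Cfp moved in opposite directions in the same gates between ConA+Veh and ConA+TCDD, with 0.74 (0.40 to 1.07) in macrophage-gated cells and -0.96 (-1.63 to -0.34) in B-gated cells. The macrophage value fell to 0.32 without the top cell of each library. Neither difference between gates was tested, since each group is 1 library.

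Cells that met no gate, which no comparison above uses, held C1q at 524 CPM in ConA+Veh, 239 CPM in ConA+TCDD and 494 CPM in ConA+FICZ, above the 48.9 CPM of the Naïve library. Of these UMIs 73.6%, 90.3% and 69.6% were in 14, 7 and 9 cells with at least 10 C1q UMIs. C3 in the ungated cells of ConA+Veh stood at 243 CPM (281 UMIs), above the 73.4 CPM of Naïve, and 1 cell gave 48.4% of it.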

How the results depend on the processing

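No ratio recomputed here whose interval was clear of 0 changed sign under an alternative. Of the values for the 5 results fixed in the design, 110 of 135 stayed within the counting interval, as did 184 of 189 for other single genes. With each cell weighted equally the log2 ratios of C1q were 1.73 for ConA+Veh over Naïve and, over ConA+Veh, -0.53 for ConA+TCDD and 0.19 for ConA+FICZ, those of Cd55 and Cr2 in the B gate -2.23 and -1.09 (ConA+Veh over Naïve), and that of Cr2 for ConA+FICZ over ConA+Veh -1.04. With mean UMIs per cell and no depth correction they were 1.61, -1.14 and 0.13 for C1q, -1.43 for Cd55, -0.60 for Cr2, 1.16 for Cr1l and 0.67 for Cfp (ConA+Veh over Naïve), and 1.12 for Cfp (ConA+TCDD over ConA+Veh). Deeper exposed libraries raise these by construction. In Leiden clusters C1q gave 1.02, -0.67 and 0.16, and Cfp 0.18 for ConA+TCDD over ConA+Veh. A lead of 3 markers gave 0.66 and -0.75 for C1q and 0.0697 for Cfp, and a minimum of 4 markers -1.29 for C1q (ConA+TCDD over ConA+Veh). Without the cell with the most UMIs of the gene, added after seeing the data, C1q gave 1.14 and -1.85 and Cfp 0.32. The cause of these shifts was not tested. Without thinning the shares were 87.9% for C1q in ConA+Veh, 56.3%, 28.1%, 22.8% and 23.2% for Cd55 and 17.8%, 11.1%, 7.88% and 8.56% for Cr2. At 500 UMIs they were 75% for C1q in ConA+FICZ, 20.3%, 4.11%, 3.53% and 3.32% for Cd55 and 3.96%, 1.69%, 0.543% and 0.894% for Cr2. A minimum of 100 UMIs, which tests fewer genes, left 1437, 79 and 192 genes at least 2-fold higher over the 6 gates in the 3 comparisons (2668, 511 and 889 at 30 UMIs) and 1960, 246 and 163 lower (4466, 1071 and 720), and of the other complement genes 4 and 3 higher (7 and 7, against Naïve and with FICZ) and 3 and 1 lower (6 and 4, against Naïve and with TCDD). No paired analysis was possible because each group is 1 library and no result comes from a test, and no replicate could be left out. ConA+TCDD had the fewest cells in the macrophage gate (28) and the endothelial gate (7), which limits its precision.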

Other observations

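C3 was also read in stromal and epithelial cells. Stellate or fibroblast cells had C3 at 5906 CPM in Naïve (2 cells), 1988 CPM in ConA+Veh (10 cells), 4419 CPM in ConA+TCDD (11 cells) and 8067 CPM in ConA+FICZ (2 cells). Bile duct cells had 3624, 4500.4, 4703 and 4817 CPM on 2, 11, 3 and 2 cells. These small classes held 34.3% of all C3 UMIs of the Naïve library and 65.5% of those of ConA+TCDD in the case of stellate or fibroblast cells, and 39.3% of those of ConA+Veh in the case of bile duct cells. Conventional dendritic cells had Cfp at 124 CPM in Naïve (10 cells) and 286 CPM in ConA+Veh (13 cells), and granulocyte progenitors at 109, 82.6 and 109 CPM in ConA+Veh, ConA+TCDD and ConA+FICZ.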
